A study of Mus musculus with 4 samples.

Results

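The 10 mature miRNAs described here are enriched in neurons: miR-124-3p (MIMAT0000134), miR-9-5p (MIMAT0000142), miR-9-3p (MIMAT0000143), miR-128-3p (MIMAT0000140), miR-132-3p (MIMAT0000144), miR-137-3p (MIMAT0000149), miR-138-5p (MIMAT0000150), miR-218-5p (MIMAT0000663), miR-129-5p (MIMAT0000209) and miR-153-3p (MIMAT0000163). They were found by these identifiers among 1265 miRNA probes, and each matched 1 probe that carries no other identifier. They were examined as cell-free miRNAs (cf-miRNAs) in the plasma of 2 aged (23 to 24 months) and 2 young (6 to 7 weeks) male C57BL6/J mice, for which the labels name no transgene and no treatment. Plasma RNA was labelled with Hy5 and hybridized to 3D-Gene mouse miRNA chips, which were read in 1 colour, and each sample is labelled as 1 mouse. Within each age the labels number the mice 1 and 2. The comparison asks whether these miRNAs differ with age in the circulation.

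miRNAs are short RNAs that repress mRNAs, which they find mainly through the seed, bases 2 to 8 from the 5′ end. Those of the nervous system guide the step from progenitor to neuron, the size of synapses and the excitability of the mature cell. A part of cellular miRNA leaves cells in vesicles or bound to proteins and is stable enough to be measured in plasma. The array reads the plasma and not the tissue that a miRNA came from, so more or fewer shedding cells, and more or less RNA shed per cell, cannot be told apart.

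RefSeq (GRCm38.p6) gave the mature sequence of 9 of the 10 miRNAs, and no entry under the name miR-124-3p was found in the sequences used. The sequences are shown because each probe reads only its own mature strand, and because they show whether members have a seed in common. The seed is in capitals, and sequences run 5′ to 3′.
miR-153-3p: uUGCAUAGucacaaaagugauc
miR-128-3p: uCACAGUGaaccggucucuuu
miR-132-3p: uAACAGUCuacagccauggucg
miR-218-5p: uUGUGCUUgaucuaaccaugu
miR-9-5p: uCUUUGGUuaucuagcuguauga
miR-9-3p: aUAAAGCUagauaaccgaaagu
miR-138-5p: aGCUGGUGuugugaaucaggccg
miR-129-5p: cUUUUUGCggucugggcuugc
miR-137-3p: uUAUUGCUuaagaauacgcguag
The 9 miRNAs had 9 different seeds. Among the other mature miRNAs of the table, miR-212-3p, from the same cluster as miR-132, had the seed of miR-132-3p, and miR-7002-3p had that of miR-218-5p. The GC content of the 9 sequences had a median of 38.1% (range 31.8% to 57.1%), against 52.2% for the 1679 mature miRNAs of the table. The 2 arms of miR-9 come from 3 hairpin genes on chromosomes 3, 7 and 13. The gene of miR-153-3p lies in Ptprn2, with the mature strand at chr12:117250860-117250881 (plus strand). The genes of miR-128-3p lie in R3hdm1 at chr1:128202404-128202424 (plus strand) and in Arpp21 at chr9:112118644-112118664 (minus strand). Those of miR-218-5p lie in Slit2 at chr5:48223966-48223986 and in Slit3 at chr11:35616840-35616860 (both plus strand), and miR-132-3p lies at chr11:75173723-75173744 (plus strand) outside other annotated genes. Gene spans were used without regard to strand, and the table does not say whether a site is exonic or intronic.

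The deposited signals are linear, and in each array the authors brought the median of the listed signals to 25. Other probes are blank, and no source used here gives the rule that decided which. The arrays of aged mice 1 and 2 listed 44.5% and 45.7% of the 1265 probes, and those of young mice 1 and 2 listed 49.0% and 34.7%. The lowest listed values were 7.0 and 9.5 on the aged arrays and 7.0 and 8.1 on the young arrays. The arrays also differed in scale, since the 362 miRNAs listed on all of them had medians of 62.1 and 56.0 in aged mice and 67.9 and 35.2 in young mice. As a miRNA of blood, miR-223-3p of neutrophils and other myeloid cells was listed on all arrays, at 429.9 and 499.2 in aged and 269.1 and 141.4 in young mice. Its signals cannot tell plasma from other parts of blood. Among miRNAs of another tissue, miR-1a-3p of muscle had signals of 56.8 and 159.2 in aged mice and 525.0 and 214.8 in young mice, and miR-133a-3p, also of muscle, had 67.8 and 142.2 in aged mice and 362.6 and 155.9 in young mice. Both were brightest in young mouse 1, the mouse with the most listed probes, and their part in the results for neuron-enriched miRNAs was not tested.

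None of the 10 neuron-enriched miRNAs was listed on all 4 arrays, where 28.6% of all probes were. A total of 9 were listed at least once, against 64.7% of all probes, and miR-137-3p was blank on every array. Of 40 possible values 18 were listed, 6 on the aged and 12 on the young arrays, and 9 of the 12 were on the array of young mouse 1. The array of aged mouse 1 listed 2 of the 10 (miR-132-3p and miR-218-5p), and that of aged mouse 2 listed 4 (these and miR-128-3p and miR-129-5p). The array of young mouse 1 listed 9, and that of young mouse 2 listed 3 (miR-124-3p, miR-128-3p and miR-138-5p). The 2 of 10 in aged mouse 1 stood against 44.5% of all probes. Aged mouse 2 (4 of 10 against 45.7%) and young mouse 2 (3 of 10 against 34.7%) were near the share of all probes. The array of young mouse 1 stood apart with 9 of 10 against 49.0% of all probes.

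**Figure D1:**
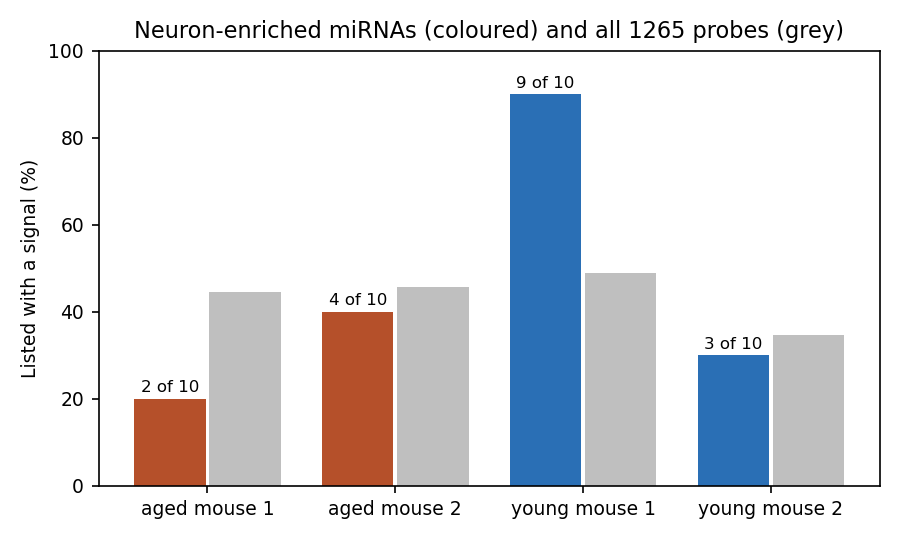
Share of the 10 neuron-enriched miRNAs (coloured bars, with counts) and of all 1265 probes (grey bars) that have a listed signal, in percent, for each of the 4 arrays. The coloured bar exceeds the grey bar only for young mouse 1, at 9 of 10.

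Most listed signals were faint. Of the 18 values, 13 lay within 2-fold of the lowest listed value of their array, against 34.5% of the 2200 listed values of all probes. The same number, 13, lay below the array median of 25. The 5 values above that median belonged to miR-153-3p, miR-124-3p and miR-128-3p. The highest signal of a neuron-enriched miRNA was 28.5 in aged mice and 109.7 in young mice. Signals of different miRNAs were not ranked against each other as amounts, since each probe binds with its own strength.

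**Figure D2:**
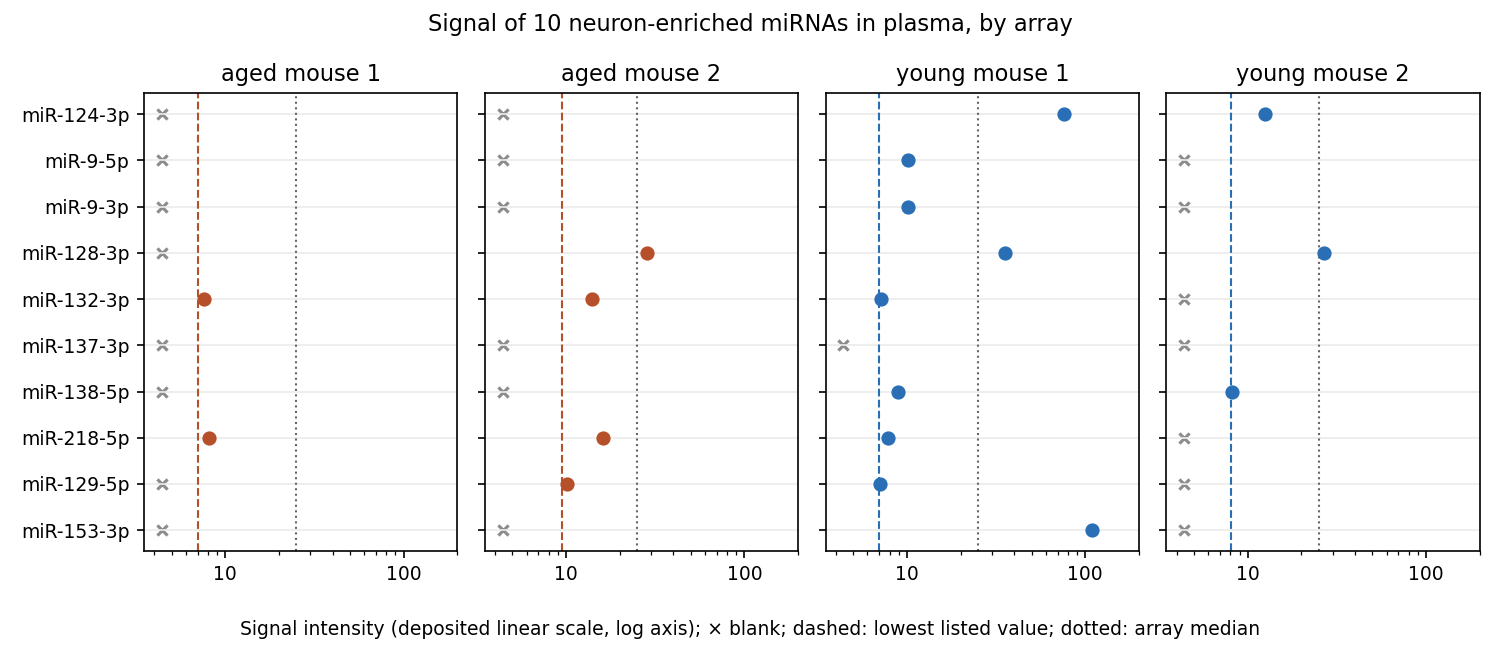
Signal of each of the 10 neuron-enriched miRNAs on each array, on a log axis of the deposited linear scale (points), with blanks as crosses at the left edge. The dashed line is the lowest listed value of the array and the dotted line its median of 25, and most points sit close to the dashed line, apart from miR-124-3p, miR-128-3p and miR-153-3p.

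miR-124-3p, the most abundant miRNA of the brain and a driver of neuronal differentiation, was blank on both aged arrays. Its signal was 76.4 in young mouse 1 and 12.5 in young mouse 2, a mean of 44.5 ± 45.2 (SD, n = 2 mice). The young mice differed 6.11-fold from each other, or 3.16-fold once the 362 shared miRNAs had the same median on every array (equal medians). Among the 127 other probes that were listed in young mouse 1 and within 1.5-fold of 12.5 in young mouse 2, the median ratio of young mouse 1 over young mouse 2 was 1.65 and 0 reached 6.11. Probes as bright as miR-124-3p in young mouse 1 were seldom blank elsewhere. Of the 62 other probes within 1.5-fold of 76.4 there, 96.8% were listed in aged mouse 1, 95.2% in aged mouse 2 and 96.8% in young mouse 2. For probes within 1.5-fold of 12.5 in young mouse 2, both aged arrays were blank for 18.2% of 165. If a blank is taken as a signal under the lowest listed value, miR-124-3p was at least 3.79-fold lower in aged than in young plasma, from geometric means of at most 8.15 and of 30.9. From young mouse 2 alone the bound was 1.53-fold, and from young mouse 1 alone 9.37-fold.

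miR-138-5p, which restrains the size of dendritic spines, was likewise blank on both aged arrays and listed on both young arrays. The signals, 8.9 in young mouse 1 and 8.2 in mouse 2 of that age (mean 8.55 ± 0.495, SD, n = 2 mice), lay near the lowest listed values of 7.0 and 8.1. By the same reading of blanks, geometric means put aged plasma at least 1.05-fold lower, or 1.26-fold with equal medians. On the deposited scale the lowest listed value of aged mouse 2, at 9.5, lay above both young signals. The blank of that mouse therefore does not place it below the young mice, and the bound rests on aged mouse 1. Of 195 other probes within 1.5-fold of 8.9 in young mouse 1, 43.6% were blank on both aged arrays, so such blanks were common at this signal. Of the 1265 probes, 1.11% had a signal in both young mice and in no aged mouse, and miR-124-3p and miR-138-5p were 2 of these 14. The opposite pattern, with signals in both aged mice alone, was found for 2.21% of all probes and for 0 of the 10.

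miR-153-3p, which represses the mRNA of alpha-synuclein, was listed on 1 array. It was blank in both aged mice and in young mouse 2, and had a signal of 109.7 in young mouse 1. Of the 61 other probes within 1.5-fold of 109.7 in young mouse 1, 1 was blank on all 3 other arrays, and 98.4% were listed in young mouse 2. If blanks are read as values under the lowest listed one, young mouse 1 was at least 13.5-fold above young mouse 2 (7.01-fold with equal medians) and at least 13.5-fold above the aged mice. On the deposited scale the bound within the young mice thus equalled that between young mouse 1 and the aged mice, and the values give no bound for the 2 ages as groups.

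The 2 arms of miR-9, a regulator of neural progenitors that acts through both of its strands, were also listed in young mouse 1 alone. miR-9-5p had a signal of 10.1 and miR-9-3p one of 10.2 there, and both were blank in both aged mice and in young mouse 2. At this brightness such a pattern was common. Of the 221 other probes within 1.5-fold of 10.1 in young mouse 1, 35.3% were blank on all 3 other arrays. Over all probes, 6.72% were listed in young mouse 1 alone, against 3 of the 10 neuron-enriched miRNAs.

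**Figure D3:**
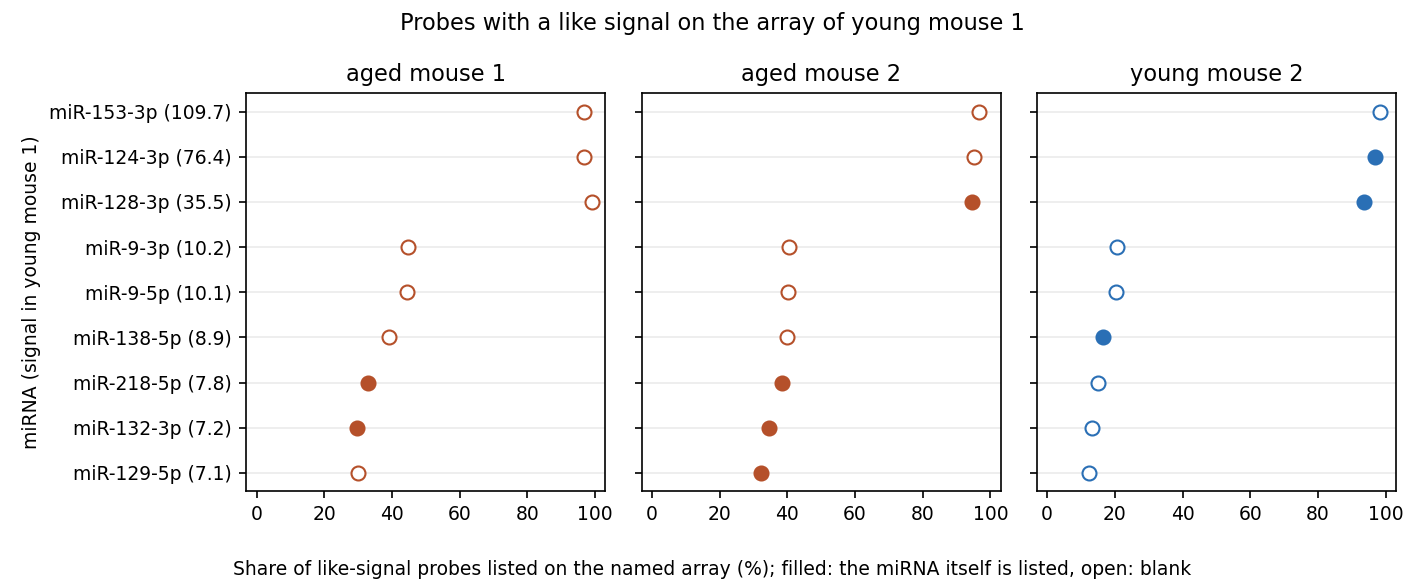
For each neuron-enriched miRNA listed in young mouse 1 (its signal there in brackets), the share in percent of other probes within 1.5-fold of that signal that were listed on the arrays of aged mouse 1, aged mouse 2 and young mouse 2. Filled points mark arrays on which the miRNA itself was listed and open points those where it was blank, and open points stand above 90% for miR-153-3p on all 3 arrays, for miR-124-3p on both aged arrays and for miR-128-3p in aged mouse 1.

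miR-128-3p, which lowers the excitability of neurons, was the 1 member listed above the array median of 25 on 3 arrays. It was blank in aged mouse 1 and had a signal of 28.5 in aged mouse 2, against 35.5 and 26.8 in young mice 1 and 2 (mean 31.2 ± 6.15, SD, n = 2 mice). The 1 aged value lay between the 2 young values. With equal medians the order changed, with 27.3 in aged mouse 2 against 28.1 and 40.9 in young mice 1 and 2. Of the 111 other probes within 1.5-fold of 35.5 in young mouse 1, 99.1% were listed in aged mouse 1, where miR-128-3p was blank. The share was 95.3% of 107 around 26.8 in young mouse 2, and 84.4% of 135 around 28.5 in aged mouse 2. Read as a signal under 7.0, the blank of aged mouse 1 puts aged mouse 2 at least 4.07-fold above it. This gap was wider than the 1.32-fold between the young mice.

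miR-132-3p, which is induced by neuronal activity, and miR-218-5p, a miRNA of motor neurons, were listed in the same 3 mice, both aged ones and young mouse 1. Both are also made outside the nervous system, for example in blood vessels. miR-132-3p had signals of 7.6 and 14.0 in aged mice 1 and 2 (mean 10.8 ± 4.53, SD, n = 2 mice), against 7.2 in young mouse 1. miR-218-5p had signals of 8.1 and 16.2 in aged mice 1 and 2 (mean 12.2 ± 5.73, SD, n = 2 mice), against 7.8 in young mouse 1. In both cases aged mouse 1 was close to young mouse 1 and aged mouse 2 stood apart. Aged mouse 2 was 1.94-fold above young mouse 1 for miR-132-3p and 1.84-fold above aged mouse 1, and for miR-218-5p these ratios were 2.08 and 2.00. For both miRNAs the gap within the aged mice was nearly that between aged mouse 2 and young mouse 1.

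The lowest listed value of aged mouse 2, at 9.5, bears on these ratios. A miRNA at 7.2 in young mouse 1 that was listed in aged mouse 2 could not have a ratio below 1.32. Among the 49 other probes within 1.5-fold of the miR-132-3p signal in young mouse 1 and listed in aged mouse 2, the median ratio was 1.63, and 30.6% reached 1.94. Among the 64 such probes for miR-218-5p the median was 1.56, and 18.8% reached 2.08. Ratios of this size were thus seen in many faint probes.

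miR-129-5p was listed once in each age. It was blank in aged mouse 1 and had a signal of 10.1 in aged mouse 2, against 7.1 in young mouse 1 and a blank in young mouse 2. These values were 1.06 and 1.01 times the lowest listed value of their arrays. miR-137-3p, a miRNA of neural development, was blank on all 4 arrays, as were 35.3% of all probes. For neither of them was a difference between the ages detectable.

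By age, 5 of the 10 neuron-enriched miRNAs were listed in young mice and in no aged mouse, 0 in aged mice and in no young mouse, and 4 in both ages. Over all probes these shares were 9.88%, 12.4% and 42.4%. This split rested on the array of young mouse 1. Without it, 2 of the 10 were listed in young plasma alone, 3 in aged plasma alone, 1 in both ages and 4 nowhere, against 3.16%, 23.2%, 31.5% and 42.1% of all probes. Without aged mouse 1 the numbers were 5 in young plasma alone and 0 in aged plasma alone, against 15.3% and 8.77% of all probes, and without young mouse 2 they were also 5 and 0, against 7.83% and 13.6%. Leaving out aged mouse 2 gave 7 and 0, against 13.6% and 5.85%.

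Since no neuron-enriched miRNA had a value on all arrays, none entered the limma comparison of the 362 shared miRNAs, in which 0 were higher and 1 (0.276%) was lower in aged plasma at an adjusted p of 0.05, with 14 higher and 8 lower at an unadjusted p under 0.05. A second fit set each blank to the lowest listed value of its array, which treats an unmeasured value as measured, and took in 818 miRNAs and 9 of the 10. It called 0 miRNAs higher and 2 (0.244%) lower, and 0 of the 9. The log2 differences, aged minus young, were -1.92 for miR-124-3p (adjusted p of 0.087 in limma, standard error 0.54), -1.87 for miR-153-3p (standard error 0.54, adjusted p = 0.087) and -1.13 for miR-128-3p (standard error 0.54, adjusted p = 0.93). The standard error was the same for all members, since limma pooled the variance over miRNAs in this fit. It does not show the wide spread of miR-124-3p and miR-153-3p between the young mice. For the other 6 the log2 difference ran from -0.16 for miR-9-3p to 0.53 for miR-218-5p, within 1 standard error of 0. Without aged mouse 1 it was 1.03 for miR-218-5p and 0.87 for miR-132-3p (standard error 0.72), and without aged mouse 2 it was 0.03 and -0.0070, so both values rested on aged mouse 2. These faint miRNAs had their blanks set to values close to their own signals, so differences near 0 follow in part from that choice. The 3 named first were under an unadjusted p of 0.05, where 2.08% of the 818 were lower and 2.93% higher. For miR-124-3p and miR-153-3p, without a listed aged value, the lower direction followed from the fill. For miR-128-3p the value of aged mouse 1 was filled. The shares are thus no measure of a difference with age for these miRNAs.

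The size of the first 2 differences depended on young mouse 1. Without that array the log2 difference was -0.62 for miR-124-3p and 0.0097 for miR-153-3p, and without young mouse 2 it was -3.23 and -3.75. Without aged mouse 1 it was -1.70 and -1.65, and leaving out aged mouse 2 it was -2.14 and -2.09. For miR-128-3p the log2 difference was -0.11 when aged mouse 1, whose value was a blank, was left out, and -2.14 when aged mouse 2 was. In these fits the lone mouse of an age is assumed to vary like the mice of the other. Without young mouse 2, miR-124-3p and miR-153-3p each had 1 listed signal, 76.4 and 109.7 in young mouse 1. Their aged values were filled, at 7.0 and 9.5, so the direction and the adjusted p of that fit rest on the fill. That adjusted p is thus no measure of a difference with age. Of the 4 fits, the one without young mouse 2 brought miR-124-3p and miR-153-3p past the threshold (adjusted p = 1.6e-05 and 2.8e-07 from limma, with 0 of the 818 called higher and 5, or 0.611%, lower), and in the other 3 the adjusted p of both was 0.32 or above. With the blanks left out of the fit instead (536 miRNAs, 0 called higher and 1, or 0.187%, lower, 0 of the members), miR-128-3p differed by -0.11 (standard error 0.71, adjusted p = 0.97 from limma), with 1 aged value. In that fit miR-132-3p differed by 0.52, miR-218-5p by 0.55 (standard error 0.71 each) and miR-129-5p by 0.51 (standard error 0.82), with an adjusted p of 0.93 for each, and for miR-129-5p the difference was 0.15 with blanks at the lowest value. The scale of the arrays changed the call in the fit with blanks at the lowest value. There too, the aged values of miR-124-3p and miR-153-3p were all filled in. The value of miR-153-3p in young mouse 2 was also filled, which left it 1 listed signal. Blanks were filled after scaling, so the filled values changed with the scale as well. Over all 818 miRNAs the log2 difference had a median of 0.20 on the deposited scale and -0.07 with equal medians. On the second scale the differences were -2.19 for miR-124-3p and -2.14 for miR-153-3p. The adjusted p was 0.035 for miR-124-3p and 0.043 for miR-153-3p from limma with equal medians, and with the brightest miRNAs of each array as the scale it was 0.022 for each. Each of these scales called 0 of the 818 higher and 6 (0.733%) lower, these 2 members included. It was 0.87 for each when the variance was trended and robust. With 2 mice of each age, the smallest two-sided p of an exact permutation test is 0.333.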

How the data were processed

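Cell-free RNA from plasma of 2 aged and 2 young mice was measured on 3D-Gene chips (Mouse miRNA ver.19). The authors deposited linear intensities with a median of 25 on each array. The sources used here do not give how background was removed. Another table holds 8 intensity columns that could not be tied to a mouse by their headings and stayed unused.

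Signals were taken as log2, without a pseudocount, and compared by limma (3.58.1, R 4.3.3; lmFit, then eBayes, without a block; aged minus young, Benjamini-Hochberg over all miRNAs tested, threshold 0.05). This step was tested on simulated data with a value on every array and the same spread for all miRNAs. The fits with blanks set or left out were not tested in this way. Descriptions used Python 3.11.15 with pandas 2.3.3, numpy 2.4.6, scipy 1.17.1 and matplotlib 3.10.9. Bounds use the geometric mean of the lowest listed values for blanks. Probes within 1.5-fold of a signal on 1 array served as description, a window chosen after seeing the data.

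The members and lists were chosen with earlier results of these data known. All 10 members are named. Of 48 further brain, blood, liver and muscle miRNAs listed for comparison, 3 could be named, by matching signals printed in the paper, and their signals are given. The rest could not be paired with a probe, since the files carry identifiers only. In the labels, same-numbered mice share only a number. The paper prints their signals by experiment, and same-numbered mice carry the same experiment number. What the arrays of an experiment had in common is not stated. Nothing says that mice were pooled, and the number of arrays limits the precision.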

Additional observations from a re-analysis of the deposited data

How the results depend on the processing

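Over all 362 shared miRNAs, 4 were higher and 12 lower in aged plasma with equal medians, and 6 and 12 with scaling on the 439 brightest miRNAs. Quantile normalization and a trended and robust variance in limma and the test the methods name gave 0 lower (32, 8 and 4 at an unadjusted p under 0.05), and blanks at the lowest value gave 2 lower of 818. With 1 array left out, the counts ran from 0 to 49 higher (49 without young mouse 1) and from 0 to 2 lower. If only signals of 10 or more count as listed, 0 and 4 of the neuron-enriched miRNAs were listed in aged mice 1 and 2 and 5 and 2 in young mice 1 and 2, against 35.9% and 44.0% of all probes in aged and 39.2% and 30.4% in young mice. With 1 array left out, 0 to 2 were listed on every remaining array. The fit with blanks at the lowest value was combined with further settings after seeing the data. In it, the log2 difference of miR-129-5p turned to -0.12 with equal medians and -0.066 with the brightest miRNAs. With 1 array left out the log2 difference ran from -0.12 to 0.41 for miR-129-5p, -0.0070 to 0.87 for miR-132-3p, -0.29 to 0.15 for miR-138-5p, -3.75 to 0.0097 for miR-153-3p, -0.38 to 0.064 for miR-9-3p, -0.37 to 0.071 for miR-9-5p and 0.03 to 1.03 for miR-218-5p. The cause was not tested. A replicate block brought miR-124-3p and miR-153-3p to an adjusted p of 0.036 each from limma, at the same log2 differences of -1.92 and -1.87, and changed the call of no other neuron-enriched miRNA. In that fit the block gave 6 lower of 818, against 2 without it, and over the 362 shared miRNAs it gave 0 higher and 1 lower, as without it. Deviations of same-numbered mice had a correlation of 0.34 across 362 miRNAs. The planned comparison of each neuron-enriched miRNA over all arrays gave no value, since none was listed on all of them. Quantile normalization, the filter on low signals and the test the methods name were not run with blanks set. With a pseudocount of 16 the differences of miR-124-3p and miR-153-3p were -1.08 and -1.18 (adjusted p = 0.99 each).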
